A study of Caenorhabditis elegans with 2 samples.

Results

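The genes described here are 10 genes of the postembryonic mesoderm of Caenorhabditis elegans, the M lineage, and of the sex myoblasts that it gives rise to: hlh-8, mls-2, sma-9, fozi-1, let-381, ceh-34, sem-2, egl-15, ceh-24 and mls-1. They were listed by name for their known roles, and the rule uses no measured value. The choice was made with earlier results of these data known. They make up 10 of the 19973 protein-coding genes on the nuclear chromosomes in the Ensembl WBcel235 annotation, which has the same coordinates as the ce11 build of the region lists. All 10 were found in that annotation. The study measured where the Hox protein LIN-39 sits on chromatin, by chromatin immunoprecipitation and sequencing (ChIP-seq) from whole L1 larvae, the stage that follows hatching. There was 1 group of 2 biological replicates, pooled males and females of strain OP18, which carries the unc-119(ed3) mutation and wgIs18, an integrated transgene for eGFP-tagged lin-39, in every sample. The antibody label reads lin-39, the description speaks of the eGFP fusion, and the sources used here do not give the promoter of the transgene or the state of the native lin-39 gene. There was no other stage, genotype or treatment, and values are compared between genes and between replicates.

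The M lineage starts from a single mesoblast, M, which is born in the embryo and begins to divide during the L1 stage. Its descendants are body wall muscles, coelomocytes (scavenger cells of the body cavity) and the sex myoblasts, which migrate to the middle of the body and later form the egg-laying muscles of the vulva and uterus. LIN-39 is expressed in the mid-body and, with the neighbouring Hox protein MAB-5, is known to act in M and the sex myoblasts. In the literature the cofactor CEH-20 acts with these Hox proteins to activate hlh-8 in M. M is a very small share of the cells of a larva, and these lists come from whole animals. A weak region can therefore come from few bound cells or from little binding in many, and the lists cannot tell these apart.

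The authors' lists held 30000 ranked regions for each replicate and 30000 for the replicates pooled, long lists that reach into the background. An optimal set held 1488 regions that passed the authors' threshold on reproducibility. Of these, 1480 overlapped a region of both replicates by at least 1 bp. Each region has a signal, a score of the region against a control on a scale that the sources used here do not state. It ran from 13.4 to 607.5 in the pooled list, with a median of 18.8, and every optimal region was at 50.03 or more. The optimal regions were the first 1488 of the pooled list by rank, where rank 1 is the strongest region. Signal scales differed between the lists, with a maximum of 387.8 in replicate 1 and 231.3 in replicate 2, so replicates are set side by side by rank. Depth is unknown, because the lists give no read numbers. For each gene, all summits (the highest point of a region) inside the gene or within 5000 bp of either end were taken.

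Of the 10 genes, 4 had an optimal summit in this window, namely sma-9 with 3 and let-381, ceh-24 and mls-1 with 1 each. Over all protein-coding genes the share with an optimal summit was 19.4%, or 3875 of 19973. The other 6 genes, hlh-8, mls-2, fozi-1, ceh-34, sem-2 and egl-15, had none. The nearest optimal summit lay 8022 bp from egl-15 and 24453 bp from sem-2, and it lay 40833 bp from mls-2, 46280 bp from ceh-34, 67550 bp from hlh-8 and 90589 bp from fozi-1. Only sma-9 among the 10 had an optimal summit inside the gene itself, as did 1.7% of all genes. Only sma-9 had an optimal summit to which its own start was the nearest gene start, as did 6.72% of all genes. At let-381, ceh-24 and mls-1 the optimal summit lay beyond the 3' end of the gene and close to the start of a neighbour.

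Below the optimal set, all 10 genes had at least 1 pooled region in the window, which was the case for 89.8% of all genes. Replicate 1 had a region at 9 of the 10 genes, all but mls-2, against 91.2% of all genes, and replicate 2 had a region at all 10, against 92.5%. These shares are high because the lists are long, and a region in the window is not by itself a difference from other genes. The 40 pooled summits fell in 169.1 kb of window, which gives 2.36 per 10 kb at the 10 genes and 2.88 per 10 kb over all genes. The median of the best pooled rank was 5471 over the 10 genes and 5501 over all genes with a summit. In replicate 1 it was 5964 against 5588.5, and in replicate 2 it was 5010 against 5545. As a group the 10 genes thus sat near the middle of all genes in each list, while single genes ran from near the top to near the bottom. The members are also longer than most genes, with a median of 3988 bp against 2027 bp, so their windows offer more room for a summit.

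**Figure D1:**
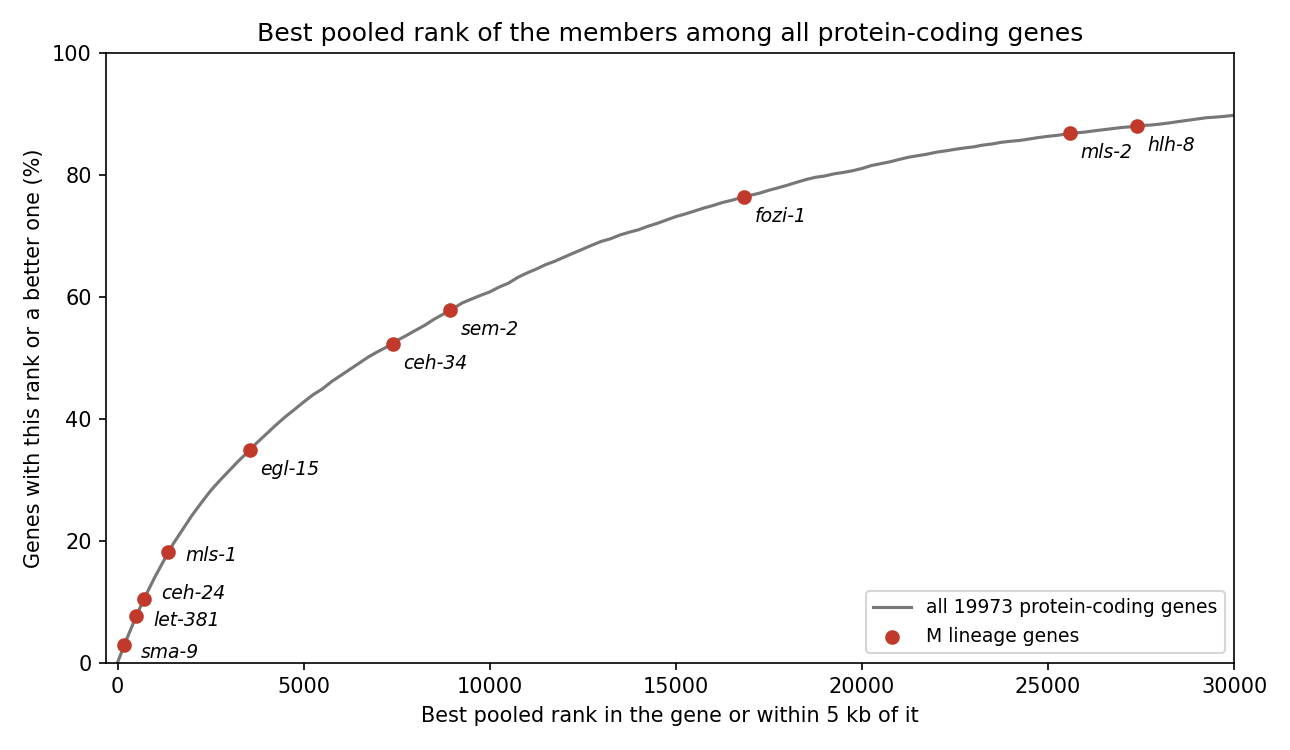
Best pooled rank of each of the 10 genes (red points) on the curve for all 19973 protein-coding genes; the x axis is the rank of the strongest pooled region in the gene or within 5000 bp (1 is strongest) and the y axis is the percentage of genes with that rank or a better one. The points spread over the whole curve, from 2.81% at sma-9 to 88.0% at hlh-8.

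The order of the 10 genes by best pooled rank was sma-9 at 180, let-381 at 502, ceh-24 at 716, mls-1 at 1365, egl-15 at 3550, ceh-34 at 7392, sem-2 at 8934, fozi-1 at 16835, mls-2 at 25583 and hlh-8 at 27380. The corresponding pooled signals fell from 166.7 at sma-9 to 14.1 at hlh-8, a value close to the 13.4 that closes the list. The first 3 genes of this order were also the first 3 in each replicate, and mls-1 came next in replicate 1 but after egl-15 in replicate 2. Below them the replicates gave other orders. In replicate 2, egl-15 had rank 2152 and mls-1 rank 2724. In replicate 1, ceh-34 at 19206 stood last of the 9 genes with a region, behind hlh-8 at 13233. Neighbours in the lower part of the order were therefore not kept apart by both replicates. A false discovery rate (q) of at most 0.05 in the pooled list, a setting added after the values were seen, was met by sma-9, let-381, egl-15, ceh-24 and mls-1, that is 5 of 10, against 36.7% of all genes.

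**Figure D2:**
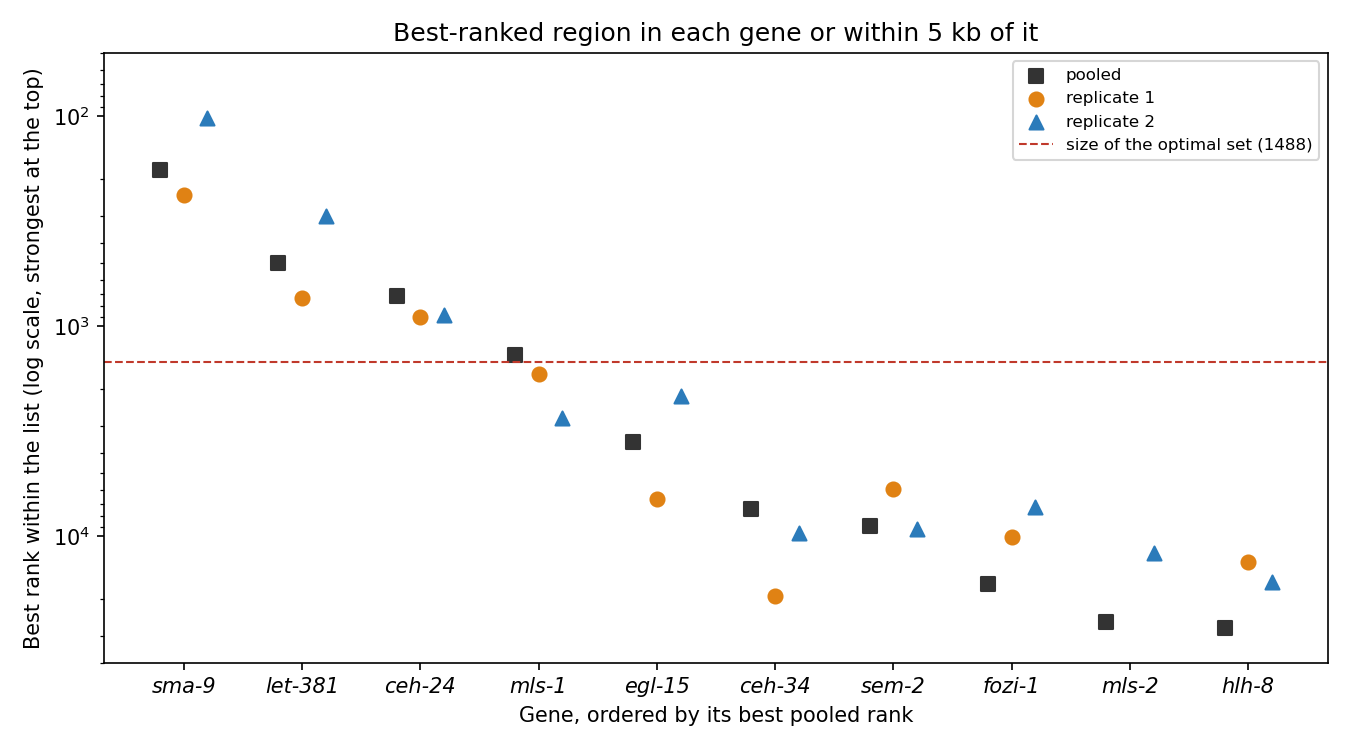
Rank of the strongest region in each gene or within 5000 bp of it, on a log scale with the strongest at the top, in the pooled list (squares), replicate 1 (circles) and replicate 2 (triangles); the dashed line is the size of the optimal set, 1488. In all 3 lists sma-9, let-381 and ceh-24 lie above the line, and mls-2 has no replicate 1 point.

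hlh-8 and mls-2, which act in the M mesoblast, were last of the 10 genes by best pooled rank within 5000 bp. With a flank of 10000 bp their best ranks were 4494 and 5499, ahead of ceh-34 and sem-2. A wider flank can only keep or better a best rank. The median over the 10 genes went from 5471 to 2697.5, and no value over all genes is given at that flank. hlh-8 encodes the Twist bHLH protein, which with the E protein HLH-2 switches on genes of the M lineage and of the sex muscles, and it lies on the plus strand at chrX:8116457-8120351. Its pooled regions were 1 of signal 13.9, rank 28277, in a hlh-8 intron 1139 bp past the gene start, and 1 of signal 14.1, rank 27380, in a coding exon of the neighbour frpr-1. The intron region overlapped no region of either replicate. Replicate 2 instead had an intron region of signal 8.5, rank 16456, at 3289 bp, and replicate 1 had no region inside the gene. No list had a summit in the 5000 bp upstream of hlh-8, the side on which its promoter lies. mls-2, an HMX homeodomain gene needed for cell divisions and fates in M, lies on the minus strand at chrX:4758804-4761640. It had 1 pooled region, of signal 14.7 and rank 25583, in intergenic DNA 4187 bp from the gene and 501 bp past the start of C39E6.2. Replicate 2 had a region there with a signal of 9.8 and a rank of 12072, and replicate 1 had none in the whole window. The 5000 bp upstream of mls-2 also held no summit in any list. Over all genes, 72.6% had a pooled summit in the 5000 bp upstream of the start, and sma-9, let-381, sem-2, egl-15 and mls-1 were the 5 of 10 that did. For an optimal summit upstream the share was 12.3% of all genes, and sma-9 was the only 1 of the 10.

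sma-9, the Schnurri zinc finger gene that patterns the M lineage along the dorsoventral axis and acts in the Sma/Mab branch of TGFβ signalling, had the strongest regions of the 10 genes. It lies on the plus strand at chrX:10769282-10782973. Having 2 optimal summits inside the gene put it with 0.155% of all genes, 31 in number, and having 3 in the window put it with 0.501%, or 100 genes. With 13692 bp sma-9 is longer than the median gene, of 2027 bp, and these shares are not matched for length. The strongest region, in an intron, had a pooled signal of 166.7 and rank 180. Its signal was 91.1 at rank 238 in replicate 1 and 86.7 at rank 102 in replicate 2. The next, chrX:10771087-10771426, had a pooled signal of 125.3 and rank 324, with 63.4 at rank 491 in replicate 1 and 65.9 at rank 208 in replicate 2. The third, chrX:10766155-10766494, had 94.6 and rank 569, with 57.3 at rank 604 and 50.7 at rank 363. Both replicates thus placed all 3 regions among their strongest and in the same order. The 3 were the only optimal regions whose nearest gene start was that of a gene among the 10, and for this reason the sequences of 201 bases centred on the summits of ranks 324 and 569 are shown. They are the plus strand of ce11, 5' to 3', from the RefSeq genome, and none of their bases lies in an annotated exon. Capitals mark matches to the searched motifs on either strand, TGATNNAT (Hox with a PBC cofactor), TAATTA (homeodomain core), CATATG (E box of Twist proteins) and GTAAACA (forkhead), and to GAGAGA, which was added after sequences at sma-9 had been read.
sma-9 intron (chrX:10771157-10771357): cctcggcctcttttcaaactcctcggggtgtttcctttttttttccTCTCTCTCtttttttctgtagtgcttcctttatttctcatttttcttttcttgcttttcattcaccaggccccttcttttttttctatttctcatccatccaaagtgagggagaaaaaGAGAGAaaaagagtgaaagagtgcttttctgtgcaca
sma-9 upstream (chrX:10766225-10766425): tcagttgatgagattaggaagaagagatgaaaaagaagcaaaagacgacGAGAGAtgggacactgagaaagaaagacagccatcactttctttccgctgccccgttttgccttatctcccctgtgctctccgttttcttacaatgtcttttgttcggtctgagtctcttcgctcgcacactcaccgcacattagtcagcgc

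Both of these sma-9 sequences held GAGAGA, with 3 matches in the intron sequence, of which 2 overlap, and 1 in the upstream sequence. Over the whole optimal set 36.6% of regions held this repeat in a window of this length, and 12.1% of all pooled regions did, and since the motif was picked from sequences at sma-9, its presence there is no finding. The matches are descriptions of letters and not sites of binding.

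Both intron summits of sma-9 lay in the long first intron, chrX:10769402-10773080, which is 3679 bp long and separates the outer first exon from the rest of the gene. The summit of rank 324 lay 1975 bp past the outer start. Of the 16 annotated transcripts, 3 began at the outer start and 13 at internal starts, 10 of them at position 10773091. The same summit lay 1834 bp upstream of that internal start, and the optimal summit outside the gene lay 2957 bp upstream of the outer start. Besides these 3, sma-9 had a pooled region of signal 25.8 and rank 6366 in the same intron at 1296 bp, found in replicate 2 (rank 3814) but not in replicate 1. It also had a region of signal 15 and rank 24411 in a coding exon 12792 bp past the start, which overlapped no region of either replicate. Replicate 2 held 9 regions in the window and replicate 1 held 4, and the additional regions of replicate 2 all had signals of 15.5 or less.

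**Figure D3:**
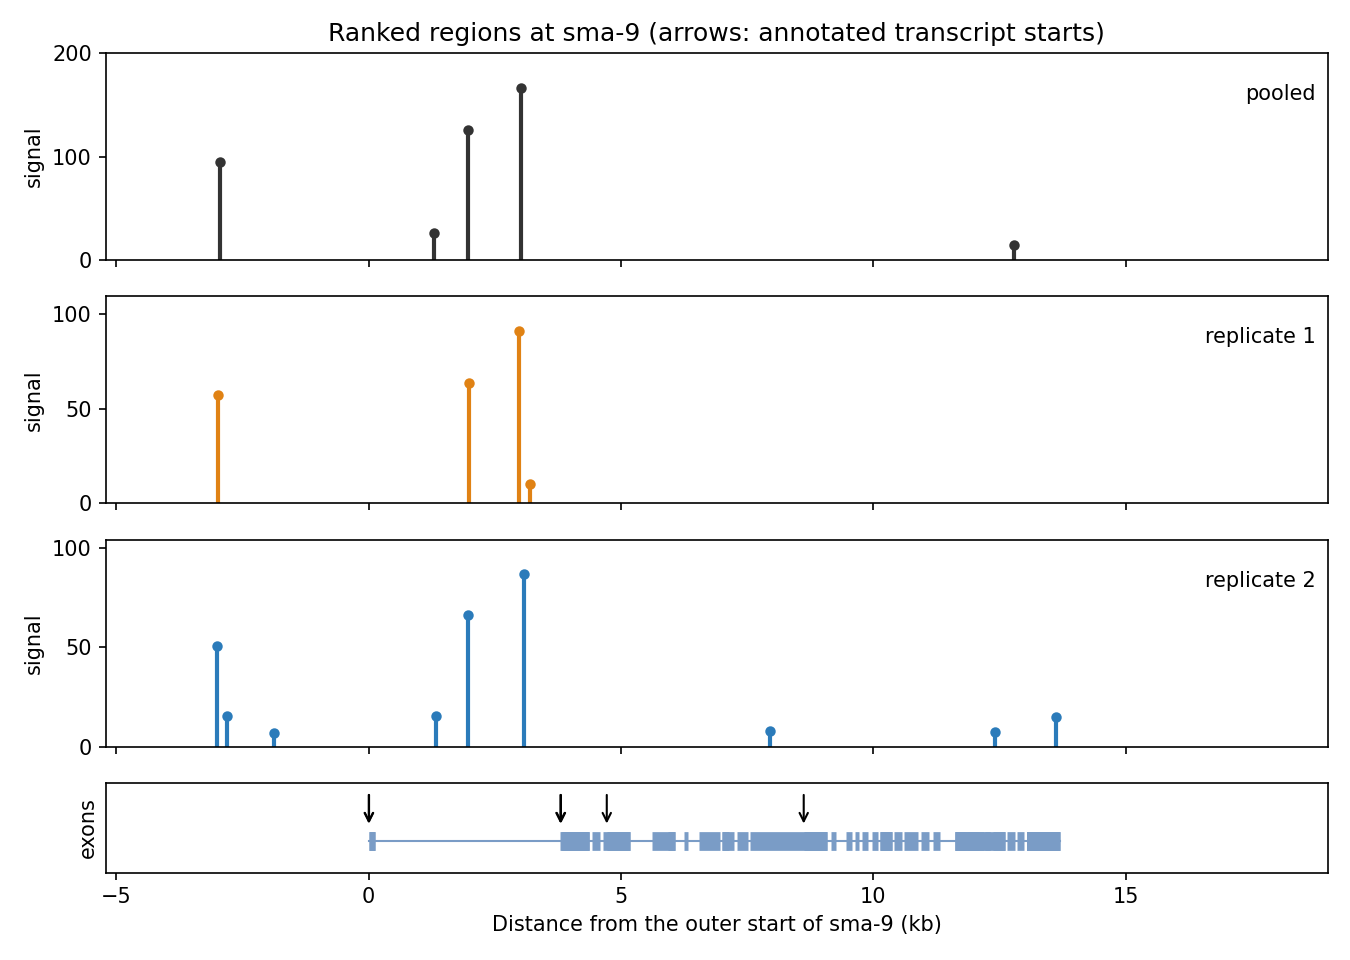
Signal of every ranked region in the sma-9 window against distance from the outer start in kb, in the pooled list and each replicate (the signal axes differ), above the exons (boxes) and annotated transcript starts (arrows). All 3 lists have the same 3 tall regions, 2 in the first intron and 1 upstream of the outer start.

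let-381 and ceh-34 act in the branch of the lineage that makes coelomocytes, where the forkhead protein LET-381 is known to act upstream of CEH-34, a homeodomain protein of the sine oculis family. let-381 lies on the minus strand at chrI:6320289-6324019. Its optimal region had a pooled signal of 100.6 and rank 502, a signal of 51.1 at rank 733 in replicate 1, and a signal of 54.9 at rank 298 in replicate 2. The summits of the 3 lists fell within 2 bp. The summit lay 2429 bp beyond the 3' end of let-381, in an intron of hrpk-1, an hnRNP K homolog, and 163 bp past the start of that gene. A region of signal 28.2, rank 4914, lay beside it in the 3' UTR of ima-2. On the upstream side let-381 had only a region of signal 15.1, rank 24346, in the 5' UTR of F26B1.1. No pooled region had its summit inside let-381. ceh-34, on the minus strand at chrV:5315496-5319577, had no pooled summit inside the gene or upstream of it. Its strongest region had a signal of 24.5 and rank 7392 in the pooled list, with rank 19206 in replicate 1 and 9613 in replicate 2. It lay 3777 bp beyond the 3' end, 216 bp upstream of C10G8.4. Inside ceh-34 each replicate had a weak intron region, with signals of 10.4 and 7.5, at different positions.

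sem-2, the SoxC gene that promotes the sex myoblast fate, had many weak regions. It is the longest of the 10 genes, 15286 bp on the minus strand at chrI:5204530-5219815, and had the most pooled regions, 10, of which 6 lay in its introns. Their signals ran from 13.9 to 22.9. The strongest, of rank 8934, was not in sem-2 but in an intron of the neighbour osr-1, with rank 5964 in replicate 1 and 25840 in replicate 2. The next, of signal 20.3 and rank 12442, lay 4229 bp upstream of sem-2 and was found in replicate 2 at rank 9224 but not in replicate 1. The strongest inside the gene had a signal of 18.8 and rank 15052.

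fozi-1 encodes a zinc finger protein that acts with the MyoD homolog HLH-1 in the choice of body wall muscle and coelomocyte fates. It lies on the plus strand at chrIII:9281780-9296675. Although it is 14896 bp long, it had only 2 pooled regions, of signal 17.9 and rank 16835 in a fozi-1 intron and of signal 14.7 and rank 25364 in an intron of K01B6.4, 264 bp beyond the gene. The replicates had more regions in the window, 6 and 9. The strongest of replicate 1, of signal 15.3 and rank 10123, was intergenic and overlapped no pooled region. The strongest of replicate 2, of signal 12 and rank 7296, overlapped the weaker pooled region, with its summit in a coding exon of K01B6.4. Inside fozi-1, replicate 2 had 7 intron regions with signals from 6.4 to 9.0.

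egl-15, which encodes the FGF receptor that guides the migrating sex myoblasts, had the strongest regions of the 6 genes without an optimal summit. It lies on the plus strand at chrX:11016400-11023421 and had 8 pooled regions, with signals from 16.8 to 31.8. The strongest, of rank 3550, lay in intergenic DNA 304 bp past the 3' end, with a signal of 13.7 at rank 13206 in replicate 1 and of 19.4 at rank 2152 in replicate 2. The next, of signal 31.4 and rank 3686, lay 1184 bp upstream of the start, with a signal of 17 at rank 7461 in replicate 1 and no region in replicate 2. A region 241 bp upstream had a signal of 21.9 and rank 10103, with 16.5 at rank 8092 and 10.1 at rank 11409, so it was present in both replicates. An intron region 490 bp past the start had 23.1 and rank 8757 and was found in replicate 1 alone. The 4 pooled summits in the 5000 bp upstream were the most of the 10 genes. The sequences at the summits 1184 and 241 bp upstream are shown because egl-15 is a known target of HLH-8 through CATATG E boxes. The second of them was chosen after its letters had been read. Strand and capitals are as for sma-9.
egl-15, 1184 bp upstream (chrX:11015116-11015316): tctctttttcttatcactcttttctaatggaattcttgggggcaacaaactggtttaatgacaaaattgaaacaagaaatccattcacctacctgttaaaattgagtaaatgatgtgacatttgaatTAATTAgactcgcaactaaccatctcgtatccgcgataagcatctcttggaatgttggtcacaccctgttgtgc
egl-15, 241 bp upstream (chrX:11016059-11016259): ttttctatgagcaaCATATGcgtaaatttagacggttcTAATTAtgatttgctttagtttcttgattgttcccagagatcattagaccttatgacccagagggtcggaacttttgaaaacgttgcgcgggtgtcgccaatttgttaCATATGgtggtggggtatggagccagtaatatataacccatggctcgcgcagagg

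The egl-15 sequence nearer to the start held 2 E boxes, CATATG, whose leftmost bases lay 86 bp to the left and 46 bp to the right of the summit, and 1 homeodomain core, TAATTA. The sequence farther upstream held 1 homeodomain core and no E box. The E box was in 2.94% of all pooled windows of this length. These letters say nothing of HLH-8 itself, which was not the protein measured.

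ceh-24 and mls-1 act late, in the sex muscles: the NK-2 homeodomain gene ceh-24 in vulval muscles and the T-box gene mls-1 in the choice of uterine muscle. ceh-24 lies on the plus strand at chrV:13813231-13815350. Its optimal region had a pooled signal of 83.0 and rank 716, with 44.2 at rank 905 in replicate 1 and 31.5 at rank 886 in replicate 2. The replicates gave it nearly the same rank. The summit lay 3846 bp beyond the 3' end of ceh-24 and 165 bp upstream of sel-10, an F-box gene of Notch turnover. In ceh-24 itself the only pooled region was an intron region of signal 15.1 and rank 24117, with rank 26292 in replicate 2 and none in replicate 1. mls-1 lies on the plus strand at chrIII:7460341-7461934. Its optimal region had a pooled signal of 52.9 and rank 1365, near the lower end of the optimal set, and lay 3439 bp beyond the 3' end and 232 bp upstream of fum-1, the fumarase gene. The replicates differed there, with a signal of 30.8 at rank 1691 in replicate 1 and of 9.6 at rank 12707 in replicate 2. The strongest region of replicate 2 in the mls-1 window, of signal 17.7 and rank 2724, lay 3064 bp past the gene start and overlapped no pooled region. Another pooled region, of signal 25.3 and rank 6809, lay nearby, 2658 bp past the gene start and 604 bp upstream of fipr-20. This pooled region had rank 3184 in replicate 1 and no overlapping region in replicate 2. No pooled summit lay inside mls-1.

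**Figure D4:**
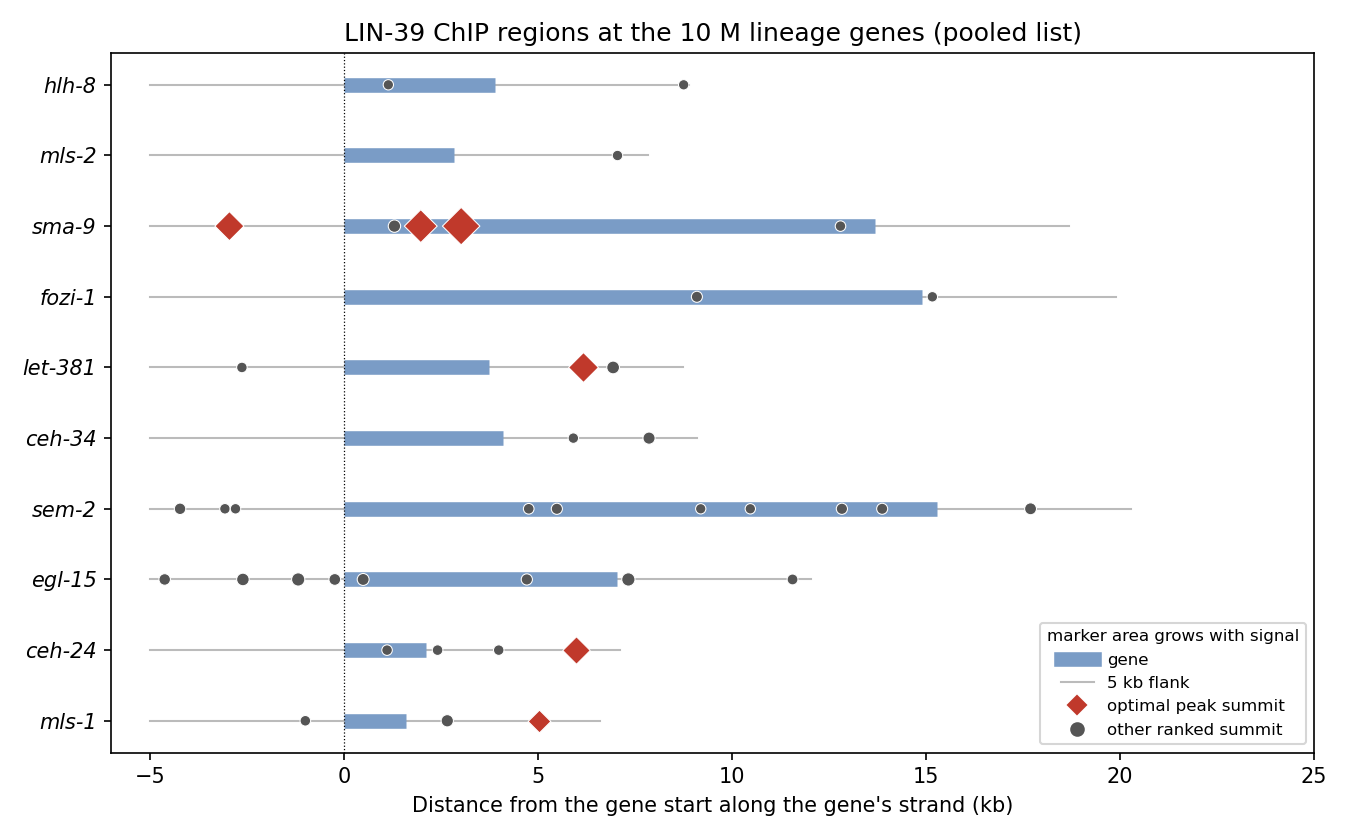
Pooled summits at the 10 genes along the strand of each gene, in kb from the gene start; blue bars are genes, grey lines the 5 kb flanks, red diamonds optimal summits and grey circles other ranked summits, with marker area growing with signal. The optimal summits of let-381, ceh-24 and mls-1 lie beyond the 3' end, and those of sma-9 lie upstream and in the first part of the gene.

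Across the 10 genes the 6 optimal summits were 3 in introns, 2 of them in sma-9, and 3 intergenic. Over the whole optimal set 297 of 1488 were in introns and 1107, or 74.4%, intergenic. The other 34 pooled summits were 16 in introns, 12 intergenic, 4 in coding exons and 1 in each kind of UTR, and 13 of the 34 lay inside the gene they were counted for. The nearest gene start was the counted gene's own for 3 of the 6 optimal and 12 of the 34 other summits. Over all genes, 3875 had an optimal summit in the window, and 1343 had one with their own start nearest. A summit closer to a neighbour's start is thus common and no trait of these 10 genes. For the weaker summits no share over all genes is given here. All 6 optimal regions overlapped a region in both replicates, as did 99.5% of the optimal set. Of the other 34, 9 did so, or 26.5%, against 31.6% of all pooled regions outside the optimal set. At hlh-8, ceh-34, sem-2, egl-15, ceh-24, mls-1, let-381 and sma-9 the strongest pooled region overlapped a region of both replicates. At mls-2 and fozi-1 the strongest pooled region did not. The same share over all genes is not given here, and an overlap of 1 bp was enough. At hlh-8 the matched regions were weak, of rank 27380 in the pooled list, 13233 in replicate 1 and 26741 in replicate 2.

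Within 100 bp of the 40 pooled summits, TGATNNAT was found at 6, or 15%, beside 15% of all pooled regions and 17% of the optimal set. TAATTA was found at 10 of the 40, against 12.3% of all pooled regions and 7.8% of the optimal set. Of these 10 summits, 5 were at egl-15 and none was optimal. CATATG was found at 3, or 7.5%, beside 2.94% of all pooled regions and 2.76% of the optimal set. These were 2 at egl-15 and 1 in a sem-2 intron. GTAAACA was found at 1, or 2.5%, beside 2.33% of all pooled regions and 2.49% of the optimal set. It lay in the ceh-24 window in intergenic DNA 238 bp upstream of F55B12.2, where TGATNNAT and TAATTA were also present. The median GC content was 33.1% over the 40 summits and 31.3% over all pooled regions. At the 6 optimal summits it was 41.0%, against 40.3% for the whole optimal set. Summits at 1 gene share a neighbourhood and base composition, so these shares are descriptions without a test.

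Among 20 other genes with known roles in M lineage patterning, 4 had an optimal summit in the window: sys-1 (β-catenin, rank 45), unc-62 (the Hox cofactor of the Meis family, rank 119), sma-6 (a TGFβ receptor, rank 385) and hlh-2 (the partner of HLH-8, rank 1213). Of these 4 genes, unc-62 alone had an optimal summit inside the gene. The strongest summits at sys-1, sma-6 and hlh-2 were intergenic and lay closest to the starts of the neighbours eif-3.C, set-4 and plag-15. The strongest region at mab-5 had rank 4815, and no pooled region lay in the window of lin-39 itself, whereas 89.8% of all genes had one. The strain carries a lin-39 transgene, and its effect on the signal at that gene was not tested. Among 17 genes of sex myoblast migration and FGF signalling, 4 had an optimal summit: let-756 (an FGF, rank 636), clr-1 (a receptor phosphatase, rank 862), mpk-1 (the ERK kinase, rank 919, in its intron) and sem-5 (the GRB2 adaptor, rank 1281). At clr-1 that summit lay closest to the start of the neighbour mrps-16, and at sem-5 it lay in an intron of dct-1. egl-17 encodes the FGF that attracts the sex myoblasts through EGL-15. Its strongest region was just below the optimal set, with a signal of 47.5 and rank 1628, in its own intron. arg-1, another target of HLH-8, had rank 26976. mab-5, lin-39, egl-17 and arg-1 were named here after their values were seen. The background for both counts is the 19.4% of all genes with an optimal summit in the window.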

How the data were processed

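ChIP-seq region lists of 2 biological replicates of 1 group were used, numbered as in the labels. Per the deposited file notes, the lists derive from read alignments and an aligned control. Which aligner, caller and cutoffs were used is not given in the sources used here. Each region's signal is the authors' deposited score against the control, on no stated scale. The deposited −log10 q follows the narrowPeak definition and saturates at 3.51 in the pooled list, so ranks were taken from the signal. The deposited summit offset, another per-region number in bp, placed each summit. The lists on the older ce10 build were not used here. The replicates shared 0 regions with identical coordinates. Depth is unknown, and replicates may differ in ways that these lists do not show.

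Genes came from Ensembl release 115 (WBcel235) and sequences from the RefSeq genome of the same assembly. With Python 3.11.15, numpy 2.4.6, pandas 2.3.3 and matplotlib 3.10.9, summits in each gene and within 5000 bp were collected, ranked within their list and placed by overlap with coding exons, UTRs, introns and intergenic DNA. The start of a gene is the outermost annotated one. Regions of different lists were matched at an overlap of at least 1 bp. The sequence, position and motif matches of the strongest sma-9 region are not reported here, so the printed sequences do not stand for all optimal regions of that gene. Motifs were searched on both strands within 100 bp of summits. No test was run, because 1 group gives no contrast; values stand beside the same measure over all 19973 protein-coding genes. The counts of summits in windows, the overlaps of regions and the motif search were tested on simulated data, and the best ranks were not. All 10 genes were named whatever their values, with up to 3 of their strongest summits and the nearest gene starts, and up to 4 genes from each of the other lists. The 10 genes and the lists were chosen with earlier results of these data known. Alternatives were other flanks, overlaps and motif windows, stronger parts of the lists and each replicate alone.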

Additional observations from a re-analysis of the deposited data

How the results depend on the processing

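The count of 4 genes with an optimal summit fell to 1, sma-9, with a flank of 2000 or 1000 bp and, in settings chosen after seeing the data, with the gene body alone or 5000 bp to either side of the gene start. It was 3 to 5 under the other settings, and 3 without either replicate. The count with a pooled region (10) stayed at 7 to 10. A narrower window holds fewer summits at any gene by construction. Inside the gene the share of all genes with an optimal summit was 1.7%. For neither count is a share of all genes given here at the other flanks or in stronger parts of the lists. Changes with the flank are therefore not read as a trait of the 10 genes. The median best rank (5471) became 15943.5 over the 8 genes with a pooled summit at a flank of 2000 bp and 16835 over the 7 at 1000 bp. It became 2697.5 with 10000 bp, and no median over all genes is given at these 3 flanks. When a replicate was left out it was 5010 to 5964. The summits per 10 kb (2.36) ranged from 2.25 to 2.84 without a replicate. The count of genes whose best region overlapped both replicates was 8, and 7 at an overlap of 50%. With 50 bp to either side of the summit, regions with TGATNNAT went from 6 to 3, TAATTA from 10 to 4, CATATG from 3 to 1 and GTAAACA from 1 to 0. These were 7.5%, 10%, 2.5% and 0% of the 40 summits, against 7.8%, 6.5%, 1.36% and 1.13% of all pooled regions. With 200 bp, TGATNNAT rose to 10, TAATTA to 11 and CATATG to 5, and GTAAACA stayed at 1. A longer window holds more matches by construction. At 200 bp these were 25%, 27.5%, 12.5% and 2.5% of the 40 summits, against 27.9%, 21.8%, 6.04% and 4.79% of all pooled regions. The flank reordered single genes. With 2000 bp the best rank of ceh-24 went from 716 to 23101, of mls-1 from 1365 to 6809, of ceh-34 from 7392 to 25456 and of sem-2 from 8934 to 15052, and let-381 and mls-2 had no pooled summit. With 10000 bp hlh-8 went from 27380 to 4494, mls-2 from 25583 to 5499 and fozi-1 from 16835 to 4030. When a replicate was left out, the best rank changed at every gene with a region, and mls-2 had no region without replicate 2. Without replicate 1 and without replicate 2, hlh-8 went from 27380 to 16456 and 13233, and egl-15 from 3550 to 2152 and 6652. ceh-24 went from 716 to 886 and 905. sma-9 stayed between 102 and 238 and let-381 between 298 and 733. No paired analysis was possible because there is only 1 group. With 2 replicates and unknown depth, weak regions found in 1 list cannot be told from background.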
